A study of Saccharomyces cerevisiae with 6 samples.

Results

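Relative transcript levels of Saccharomyces cerevisiae S288c grown in the media MDN and SCD were compared on 1 array of 2 channels, the only array of 6 in the series that carries SCD. S288c is the strain from which the reference genome of budding yeast was made. Poly(A) RNA of SCD-grown cells was labelled with Cy3 and poly(A) RNA of MDN-grown cells with Cy5, and neither culture received rapamycin. MDN and SCD are given only by abbreviation, with no recipe, and the labels name no growth phase, temperature or harvest time. All probes with a value on this array were taken, 5935 of 6210, and they give 5347 of the 5560 genes named by the probe annotation. The other arrays used for reference compared MDN with YPD, the usual rich medium of yeast extract, peptone and dextrose (1 array), and rapamycin-treated with untreated cells in MDN (2 arrays) and in YPD (2 arrays). Rapamycin is an inhibitor of the TOR kinase. The series asked which genes respond to rapamycin during growth in MDN, and the arrays without rapamycin were run for comparison between media.

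Values are log2 ratios as deposited, read as MDN over SCD from the dyes. This direction is likely rather than stated: with the ratio formed as SCD over MDN, higher and lower would change places throughout. No replicate, dye swap or second SCD culture was analysed, so no ratio of this array has a replicate error and none was tested. A gene is called higher or lower here when its ratio was at least 2-fold, which describes these 2 RNA samples and not the media in general. As a guide to array error, replicate rapamycin arrays had a median SD of 0.11 per gene on the log2 scale and a 95th percentile of 0.42. Replicate arrays differed by at least 1 for 34 of 5080 genes in MDN (0.669%) and for 95 of 5370 genes in YPD (1.77%). On the MDN over SCD array itself, the 34 genes with several probes had a median distance of 0.23 between their probes. PRM7, chosen here for its spread, had probes at -2.84 and -0.04. Probes were averaged, so PRM7 is counted among the lower genes although 1 of its probes was near 0. Ratios were kept to steps of 0.01, so low ratios are coarse. The arrays also differed in spread. The median absolute deviation, scaled to an SD, was 0.29 here, 0.39 for MDN over YPD, and 0.71 and 0.69 for rapamycin in YPD. Whether the arrays share a scale was not tested, so sizes of ratios on different arrays are set side by side only with that limit. Genes that mark mating type had a median of 0.03 over 14 measured members, and a ratio array holds no level from which to tell whether they were expressed.

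Yeast senses nitrogen through several circuits. When a preferred nitrogen source is plentiful, the GATA factors Gln3 and Gat1 are held back and the genes for poorer sources stay silent, which is called nitrogen catabolite repression. The Ssy1-Ptr3-Ssy5 sensor of the plasma membrane detects amino acids outside the cell and, through the factors Stp1 and Stp2, turns on genes for amino acid and peptide permeases. Gcn4 and pathway factors such as Leu3 and Lys14 turn on amino acid biosynthesis when the amino acid is short.

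Most genes had similar levels in both media. The median over all 5347 genes was -0.07, and 85.4% of them lay within 0.5 of 0. Ratios below 0 were found for 60.3% of all genes and ratios above 0 for 38.1%. In MDN 131 genes were at least 2-fold higher (2.45% of genes measured) and 54 at least 2-fold lower (1.01%). A ratio of at least 4-fold was reached by 32 higher and 15 lower genes, and of at least 8-fold by 13 higher and 6 lower ones. Of the genes beyond 2-fold, 80 of the 131 higher and 31 of the 54 lower ones belonged to at least 1 of 60 lists of pathway genes used here. The share of all measured genes in these lists was not counted. These counts therefore have no background and do not show that such genes gather in the lists.

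The highest ratio was that of GAP1, the general amino acid permease, at 6.0 on the log2 scale (64.0-fold higher in MDN). It was followed by MEP2, a high-affinity ammonium permease, at 5.89 (59.5-fold), and DAL80, a GATA repressor of nitrogen genes, at 5.22 (37.4-fold). The 4 copies of ASP3, the periplasmic asparaginase, were at 5.44, 5.04, 4.69 and 4.67, and their probes may share signal because the copies are nearly identical. DAL5, the allantoate permease, was at 3.99, PUT1, proline oxidase, at 3.42, CPS1, a vacuolar carboxypeptidase, at 3.29 and DAL7, a malate synthase of allantoin use, at 3.25. All of these are nitrogen catabolite repression genes. The 15 highest genes were completed by LEE1, a zinc-finger protein of unknown role, at 3.66, and by 3 biosynthetic genes, namely ADE17 at 3.20, ARG3 at 2.91 and LEU2 at 2.89.

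At the other end stood ZRT1, the high-affinity zinc transporter, at -6.64. This is the ratio 0.01, the smallest the deposited values can take, and rounding alone leaves it anywhere between -7.64 and -6.06. BAP3 and BAP2, permeases for branched-chain amino acids, were at -5.64 and -4.32 (ratios of 0.02 and 0.05). CHA1, the serine and threonine deaminase that is induced by those amino acids, was at -5.06, and ZPS1, a cell surface protein of the zinc regulon, at -4.06. INO1, inositol 3-phosphate synthase, was at -2.94, and YGP1, a secreted glycoprotein linked to nutrient limitation, at -2.64. VHR2 was at -2.06 and ROM1, an exchange factor for Rho1, at -2.18. The remaining 6 of the 15 lowest genes were permeases, described with their family.

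**Figure D1:**
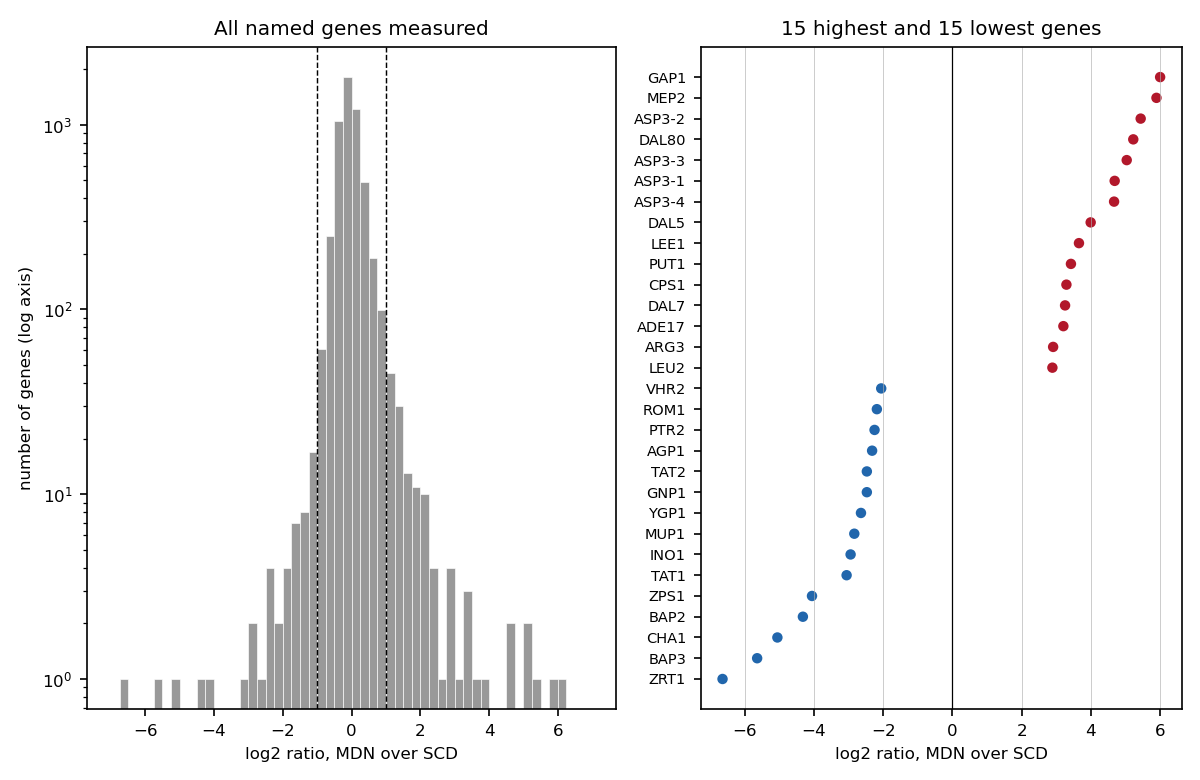
The left panel counts the named genes measured (log axis) by their log2 ratio of MDN over SCD, in bins, with dashed lines at 2-fold. The right panel gives the ratio of the 15 highest and 15 lowest genes, each a single value from 1 array. Most genes lie near 0, and the highest genes, led by GAP1 at 6.0, and the lowest, led by ZRT1 at -6.64, lie far outside that range.

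Nitrogen catabolite repression genes had a median of 2.11, against -0.07 for all genes. Of 31 measured members 20 were at least 2-fold higher in MDN and none was lower, where 2.45% of all genes were higher. With the ASP3 copies counted once, 17 of 28 were higher and the median was 1.30. The median of 2.11 was the highest of the lists, whereas that of 1.30 was below the lysine median of 1.86. Transport genes spanned the whole range. Besides GAP1, MEP2 and DAL5, the urea permease gene DUR3 was at 2.33, the proline permease gene PUT4 at 1.34, the allantoin permease gene DAL4 at 1.04 and the ammonium permease gene MEP1 at 1.24. MEP3, the third ammonium permease, was at -0.47, so the ammonium permease genes were not high as a group. Among the enzymes of allantoin breakdown, DAL1 (allantoinase) was at 2.15, DAL2 (allantoicase) at 2.11 and DAL3, which acts on ureidoglycolate, at 2.41. DCG1, which lies in the same gene cluster, was at 0.87.

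The regulators of these genes differed among themselves. DAL80 at 5.22 and GAT1, the inducible GATA activator, at 2.19 were higher, whereas the second repressor GZF3 was at 0.46 and GLN3, the activator, at 0.63. Ratios for the other members of the regulator list, which include URE2 and the kinase gene NPR1, reached no lower than -0.07, and only GAT1 and DAL80 of its 10 measured members passed 2-fold. Genes for the use of 4-aminobutyrate were split, with the activator gene UGA3 at 1.25, the permease gene UGA4 at 0.74, the transaminase gene UGA1 at 0.45 and the dehydrogenase gene UGA2 at 0.08. CAR1, arginase, was at -0.51 and AMD2, a putative amidase, at 0.01. PUT2, which completes proline breakdown, was at 0.82, OPT2, an oligopeptide transporter, at 0.69 and GDH2, the glutamate dehydrogenase that breaks glutamate down, at 0.39. In all, 2 genes of the list were below 0, namely CAR1 and MEP3. Among assimilation genes, GLN1, glutamine synthetase, was at 1.93 and GDH3, a glutamate dehydrogenase, at 2.04. Its counterpart GDH1 was at -0.20, GLT1, glutamate synthase, at -0.15, and the asparagine synthetase genes ASN1 and ASN2 at -0.20 and -0.34.

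In the list of amino acid permeases and their sensor, 8 of 17 measured members were at least 2-fold lower in MDN and none was higher, where 1.01% of all genes were lower, and the list median was -0.36. After BAP3 and BAP2 came TAT1, a permease for tyrosine and branched-chain amino acids, at -3.06 (8.33-fold lower). TAT2, the tryptophan and tyrosine permease, and GNP1, the glutamine permease, were both at -2.47. AGP1, a permease of broad range, was at -2.32, PTR2, the dipeptide permease, at -2.25 and DIP5, the permease for glutamate and aspartate, at -1.69. MUP1, the high-affinity methionine permease, which was listed with the sulfur genes, was at -2.84. GAP1 (6.0) and PUT4 (1.34), also amino acid permease genes, were listed with the nitrogen catabolite repression genes. The counts of higher and lower permease genes therefore depend on how genes were assigned to lists. The permeases for basic amino acids lay close to 0, CAN1 at -0.23 and LYP1 at -0.09, as did the histidine permease gene HIP1 at 0.18, and AGP2 and AGP3 were at -0.36 each. The sensor genes did not share the low ratios, since SSY1 was at -0.06, PTR3 at 0.24 and SSY5 at 0.85, and STP1 was at 0.54. In the list of aromatic amino acid breakdown, 1 of 8 members was higher and 1 lower, with a median of 0.26. The lower gene was ARO9, an aromatic aminotransferase, at -1.69, and the higher was ARO8, the constitutive aminotransferase, which was 2.15-fold higher. ARO10, a decarboxylase of the same route, was at -0.89.

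The MDN over YPD array gave comparable values for both families, although it shares the medium MDN, and perhaps the same RNA, with the MDN over SCD array. On it, 4.06% of genes were at least 2-fold higher and 1.90% at least 2-fold lower in MDN. GAP1 was at 6.75, MEP2 at 6.30 and DAL80 at 5.04, and 20 of 31 nitrogen catabolite repression genes were higher. BAP3 was at -5.06, BAP2 at -4.06, TAT1 at -4.06 and PTR2 at -3.64, and 8 of 17 permease and sensor genes were lower. CAR1 was at -2.12 against YPD and -0.51 against SCD.

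**Figure D2:**
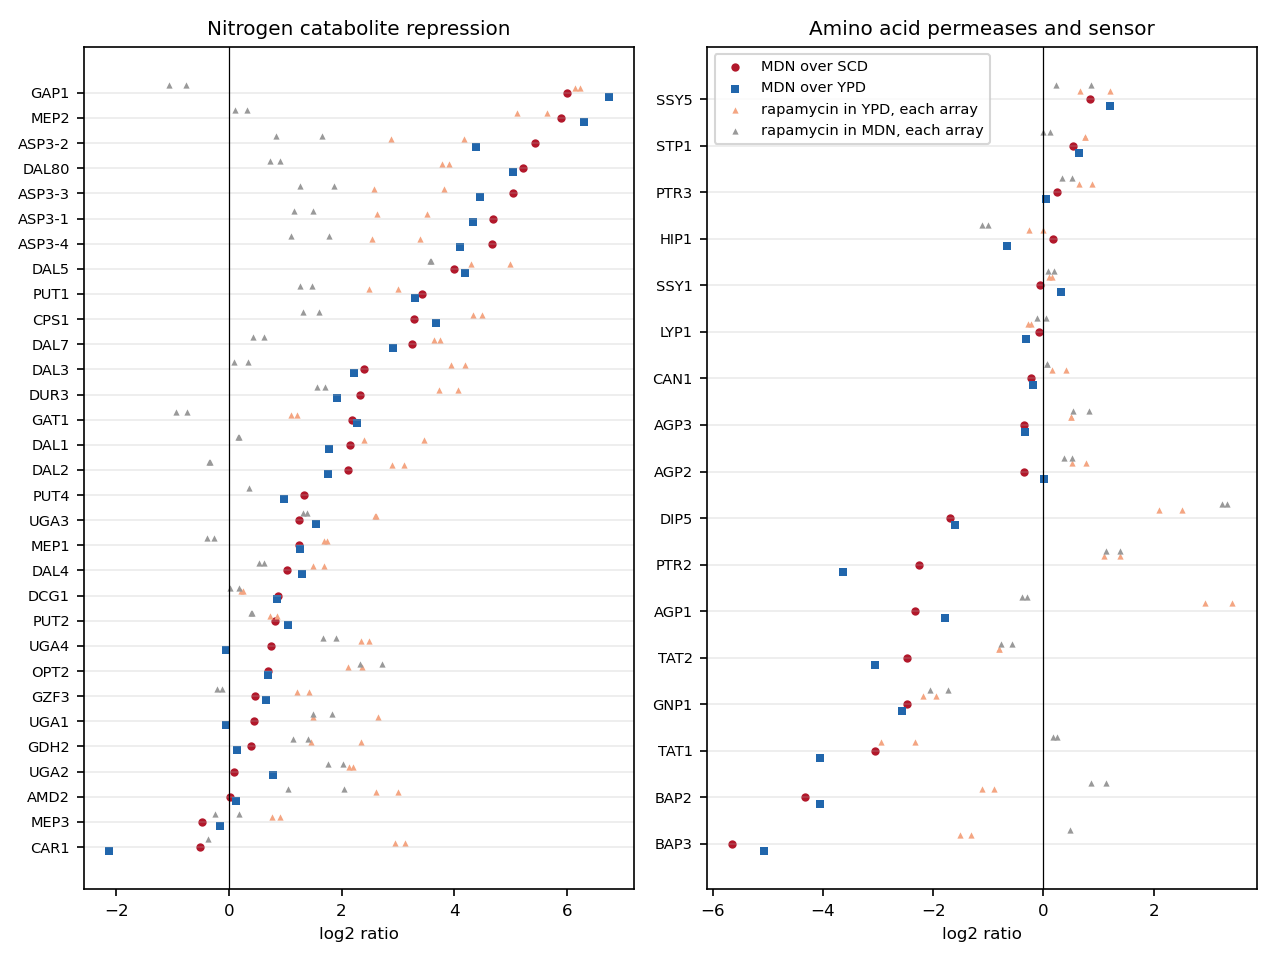
Log2 ratios of nitrogen catabolite repression genes (left) and of amino acid permease and sensor genes (right) are shown on every array, with a circle for MDN over SCD, a square for MDN over YPD (1 array each) and triangles for each of the 2 rapamycin arrays per medium. Genes are ordered by MDN over SCD, from GAP1 at 6.0 to CAR1 at -0.51 and from SSY5 at 0.85 to BAP3 at -5.64.

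Genes for the synthesis of several amino acids were higher in MDN. The share of all genes to set beside each list count that follows was 2.45% at least 2-fold higher and 1.01% lower. Lysine biosynthesis was the most uniform, with 8 of 9 measured members at least 2-fold higher and a median of 1.86. In the order of the pathway, the homocitrate synthase genes LYS20 and LYS21 were at 1.86 and 1.93 and LYS4, homoaconitase, at 1.91. LYS12, homoisocitrate dehydrogenase, was at 1.18, LYS2, the aminoadipate reductase, at 1.14, and the closing enzymes LYS9 and LYS1, saccharopine reductase and saccharopine dehydrogenase, at 2.26 and 1.86. LYS14, the activator, was at 1.21. The exception was LYS5, which attaches the cofactor to Lys2, at -0.06. Signal may pass between the probes of LYS20 and LYS21, which resemble each other.

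In branched-chain amino acid biosynthesis 8 of 13 measured members were at least 2-fold higher and none was lower, with a median of 1.25. The leucine branch led. LEU2, isopropylmalate dehydrogenase, was at 2.89 (7.40-fold), LEU1, isopropylmalate isomerase, at 2.66 and LEU4, isopropylmalate synthase, at 1.25, whereas the second synthase gene LEU9 was at 0.65. OAC1, a mitochondrial carrier that exports isopropylmalate, was at 2.16. In the steps shared by valine and isoleucine, ILV2 and ILV6, the subunits of acetolactate synthase, were at 1.24 and 0.96, ILV5 was at 1.64, and ILV3 was 2.83-fold higher. ILV1, threonine deaminase, was at 0.85. BAT1, the mitochondrial transaminase, was at 2.13 and BAT2, the cytosolic one, at 0.39. Against YPD the transaminase genes were further apart, with BAT1 at 1.62 and BAT2 at -3.06. LEU3, the activator of the pathway, was at -0.06.

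Arginine biosynthesis had 5 of 8 measured members at least 2-fold higher and a median of 1.35. ARG3, ornithine carbamoyltransferase, was at 2.91 (7.51-fold) and CPA1, a subunit of carbamoyl phosphate synthetase, at 2.13. ARG7, ornithine acetyltransferase, was at 1.61, and ARG4 and ARG1, which carry out the closing steps, were at 1.36 and 1.34. ARG8, acetylornithine aminotransferase, was at 0.98, ARG2, acetylglutamate synthase, at 0.28 and ORT1, the ornithine carrier, at -0.27. ARG1, ARG4 and ARG3 were higher still against YPD, at 3.87, 3.16 and 4.86, on an array of wider spread. Histidine biosynthesis had 3 of 7 members higher and a median of 0.96, with HIS4 at 2.09, HIS5 at 1.86 and HIS1 at 1.39. HIS3 was at 0.96, HIS2 at 0.81, HIS7 at 0.80 and HIS6 at -0.12.

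Other amino acid lists were closer to even. Aromatic amino acid biosynthesis had 1 of 12 members past 2-fold (TRP5, tryptophan synthase, at 1.01) and a median of 0.44. Threonine, serine and homoserine synthesis had 2 of 10, with SER3, phosphoglycerate dehydrogenase, at 1.69 and HOM3, aspartate kinase, at 1.06. The 3 proline genes had a median of 0.10. General amino acid control genes had a median of -0.10 over 9 measured members and none past 2-fold.

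**Figure D3:**
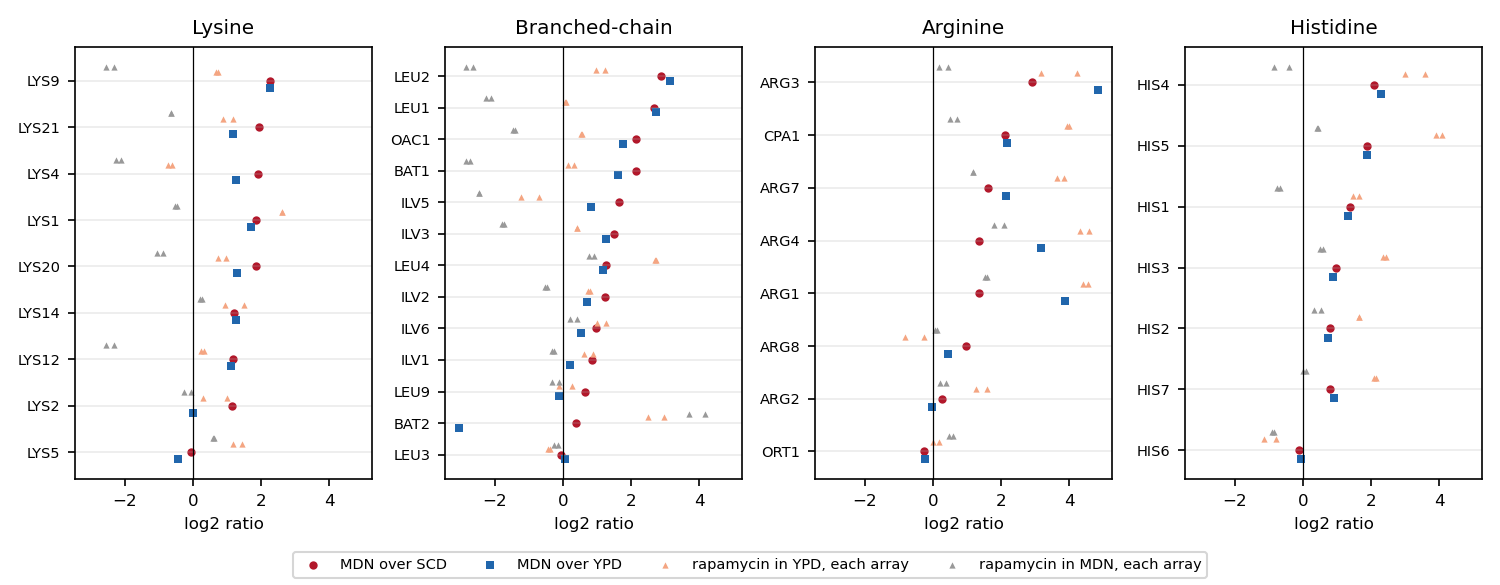
Log2 ratios of the measured genes of lysine, branched-chain, arginine and histidine biosynthesis are drawn on every array, with a circle for MDN over SCD, a square for MDN over YPD (1 array each) and triangles for each of the 2 rapamycin arrays per medium. Nearly all circles lie above 0, LYS5, LEU3, ORT1 and HIS6 being the exceptions, at -0.06, -0.06, -0.27 and -0.12.

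Purine synthesis had 7 of 20 measured members at least 2-fold higher and a median of 0.53. ADE17, an enzyme of the final stage of inosine monophosphate synthesis, was at 3.20 (9.22-fold), while its paralog ADE16 was at 0.11. ADE13, adenylosuccinate lyase, was at 1.66, ADE1 at 1.43, ADE4, which carries out the committed step, at 1.30, ADE12, adenylosuccinate synthase, at 1.26 and ADE2 at 1.18. The one-carbon genes that feed the pathway had 3 of 14 members higher, these being SHM2, cytosolic serine hydroxymethyltransferase, at 1.91, GCV2, glycine decarboxylase, at 1.36, and ADE3, which was 2.82-fold higher. FCY2, the purine and cytosine permease, was at 1.51, APT1, adenine phosphoribosyltransferase, at -0.76, and HPT1, hypoxanthine-guanine phosphoribosyltransferase, was 2.15-fold higher. The phosphoribosyl pyrophosphate synthetase genes did not differ in this way, PRS1 to PRS5 lying between -0.18 and 0.34, and the factors BAS1 and PHO2 were at -0.25 and -0.40. In the pyrimidine list only FUI1, the uridine permease, passed 2-fold, at 1.45, with a median of 0.03 over 13 members.

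Sulfur genes separated the reference media. Sulfate assimilation had a median of 0.17 against SCD, with SUL1, a sulfate permease, at 1.88 as the only 1 of 12 members past 2-fold. Against YPD the same list had a median of 2.09 and 10 of 12 members at least 2-fold higher, where 4.06% of all genes were. MET17, which makes homocysteine, was at 0.42 against SCD and 3.82 against YPD, MET10, a sulfite reductase subunit, at 0.67 and 3.78, and SUL2, the other sulfate permease, at 0.44 and 3.59. The ratios against each medium come from 1 array each, and the difference between them was not tested.

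The zinc list held the lowest ratio on the array. ZRT1 was at -6.64, ZPS1 at -4.06, ZRT3, which releases zinc from the vacuole, at -1.64 and ZAP1, the zinc-responsive activator of these genes, at -1.51. Against YPD the same genes were at -0.27, 0.30, 0.30 and -0.27. The alcohol dehydrogenase genes ADH1 and ADH3, which Zap1 lowers in zinc-poor cells, were at 1.20 and 0.99, and ADH4, which it raises, was at -0.84. The zinc list had 4 of 13 members lower and 1 higher, with a median of -0.01.

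Among inositol and phospholipid genes, 1 of 19 measured members was at least 2-fold lower and none was higher. INO1, which makes inositol 3-phosphate and is repressed by inositol, was at -2.94. The median was -0.32, and 16 of 19 members had a ratio below 0, as did 60.3% of all genes. CHO1, phosphatidylserine synthase, was at -0.94 and OPI3, a phospholipid methyltransferase, at -0.54. Against YPD these genes stood above 0, INO1 at 0.78, CHO1 at 1.52 and OPI3 at 2.69.

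Phosphate genes had 5 of 21 members at least 2-fold higher and a median of 0.41. PHO11 and PHO12, acid phosphatases so alike that their probes may share signal, were at 1.88 and 1.76, PHO84, the phosphate transporter, at 1.42, SPL2 at 1.06 and PHM7 at 1.04. Against YPD the acid phosphatases had the other sign, at -1.47 and -1.09. Copper genes had 3 of 15 lower, namely FRE1, a metalloreductase, at -1.94, CTR1, the copper transporter, at -1.74 and COX17, a copper chaperone, at -1.18. FRE1 and CTR1 were lower still against YPD, at -3.47 and -2.40. In the iron list SIT1, a siderophore transporter, was at -1.69 and FET3, the multicopper oxidase of iron uptake, at 1.33, with a median of 0.12 over 24 members. The vitamin lists held 1 gene past 2-fold, PHO3, a thiamine-repressed acid phosphatase, at -1.36.

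Carbon metabolism differed at a few genes. In the retrograde list 4 of 12 members were at least 2-fold higher and the median was 0.92. CIT2, the peroxisomal citrate synthase, was at 2.80, ACO1, aconitase, at 2.29, DLD3, a lactate dehydrogenase, at 1.59 and PYC1, pyruvate carboxylase, at 1.05. These enzymes supply oxoglutarate for glutamate synthesis. CIT1 was at 0.97, IDH2 at 0.95 and IDH1 at 0.90. In the citric acid cycle list, which also holds ACO1, the other member past 2-fold was IDP1, the mitochondrial isocitrate dehydrogenase that uses NADP, at 1.15. In the list of hexose transporters and glucose sensing, 1 of 23 members was higher and 3 were lower, with a median of -0.38. HXT1, a low-affinity transporter, was at 1.42, and the lower genes were HXT6 at -1.84, HXT7 at -1.22 and HXT2 at -1.36, which encode high-affinity transporters. HXT6 and HXT7 are nearly identical neighbours whose probes may share signal.

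No ribosomal protein gene passed 2-fold in either direction, and the medians were -0.13 for 78 large-subunit and -0.14 for 55 small-subunit genes, against -0.07 for all genes. Ribosome assembly genes had a median of -0.10 over 112 members, with none past 2-fold. Translation factors had a median of 0.03 over 42 members and aminoacyl-tRNA synthetases 0.24 over 22. RNA polymerase I and III genes had a median of -0.10, and RRN5 was the only one of 40 past 2-fold, at 2.78. RRN5 lies next to PUT1, at 3.42, in the RefSeq gene order (assembly R64), and SLS1, its neighbour on the other side, was at 1.45. Whether the RRN5 probe detects transcripts of a neighbour was not tested. Mitochondrial ribosomal protein genes had a median of -0.47, with 65 of 66 members below 0, as were 60.3% of all genes. Only RSM22 at -1.22 and MRPL39 at -1.03 of them passed 2-fold.

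General stress genes had 5 of 42 members at least 2-fold lower, where 1.01% of all genes were, and none higher. Their median was -0.15. YGP1 was at -2.64, HSP30, a membrane heat shock protein, at -1.94, GPX1 at -1.12, and GAD1 and CYC7 at -1.03 each. Against YPD none of the 42 was lower and 14 were higher, where 1.90% of all genes were lower and 4.06% higher. Proteasome genes had a median of -0.29, with 29 of 33 below 0, as were 60.3% of all genes. Autophagy genes had a median of -0.12 over 22 members, and neither list had a member past 2-fold. Histone genes were all above 0, 10 of 10, where 38.1% of all genes were. Their median was 0.43 and the highest value 0.95 for HTB2. TOR pathway genes lay between -0.58 and 0.65, with a median of 0.06 over 17 members.

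Several other lists held few or no genes past 2-fold. In glycolysis and fermentation, 2 of 24 members were higher, ADH1 and the alcohol dehydrogenase gene ADH2 at 1.08, and the median was 0.47. GSY1, a glycogen synthase, at -1.09 was the lower 1 of 18 trehalose and glycogen genes (median -0.07), and HSP150, a cell wall protein, at 1.32 the higher 1 of 23 cell wall genes (median 0.15). CYC7 was the lower 1 of 34 respiratory chain genes, whose median was 0.04. No member passed 2-fold among 24 ergosterol genes (median 0.10), 12 fatty acid genes (median 0.01), 22 heat shock chaperone genes (median -0.22), 22 oxidative stress genes (median -0.05) or 19 cell cycle genes (median -0.03). The 6 aryl-alcohol dehydrogenase genes lay between -0.43 and -0.15.

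**Figure D4:**
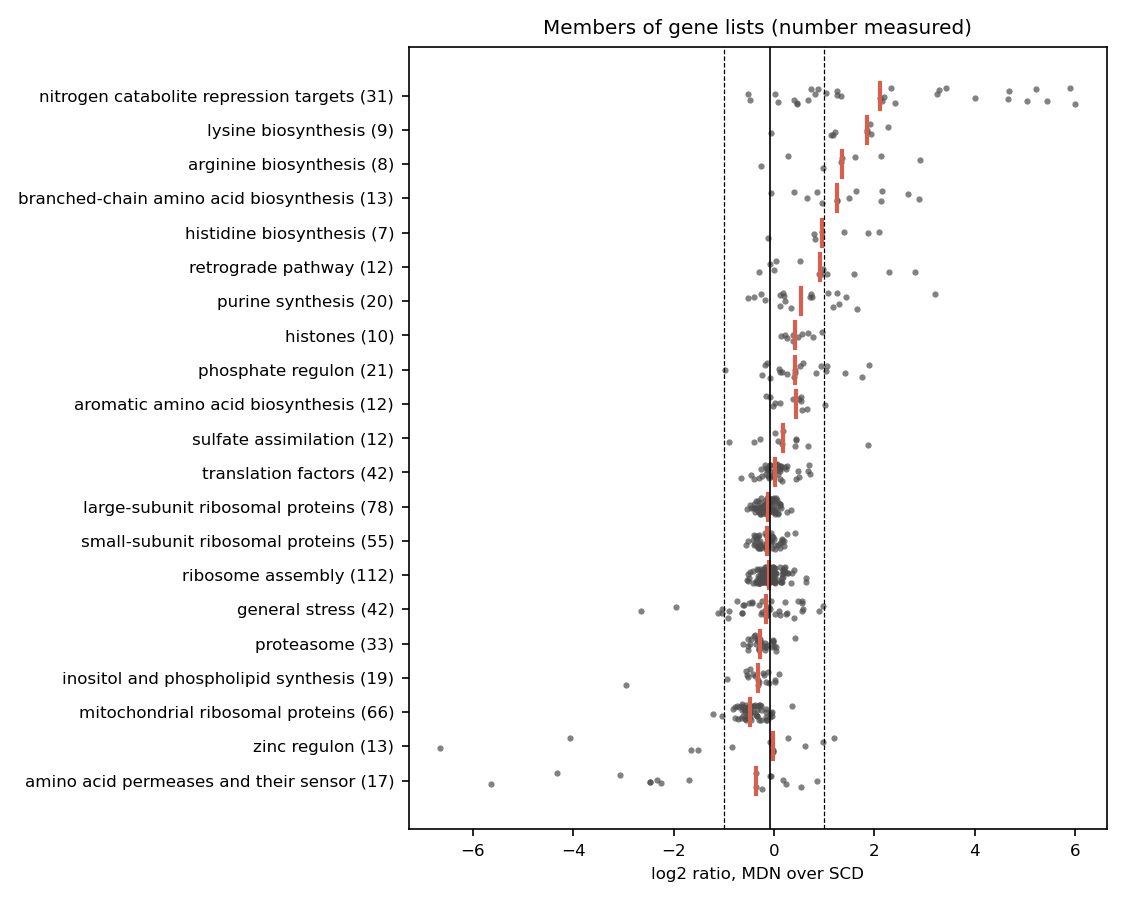
Each point is the log2 ratio of MDN over SCD of a measured member of a gene list on 1 array, with the number of members in parentheses. The thick marks are list medians, the solid line is the median of all genes (-0.07) and the dashed lines mark 2-fold. Nitrogen and amino acid biosynthesis lists extend to the right, permeases and zinc genes to the left, and ribosomal protein genes stay close to the line.

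The rapamycin arrays in YPD offered a readout whose labelled samples were neither grown in MDN nor in SCD, although every array shares the dye orientation. In a limma fit over the 4 rapamycin arrays, 34.3% of the 5488 genes and unnamed probes tested rose with rapamycin in YPD and 32.0% fell (Benjamini-Hochberg adjusted p under 0.05, 2 arrays per medium). The labels do not say that the arrays came from separate cultures, so these p-values measure the spread between arrays. Of the 131 genes higher in MDN than in SCD, 128 were tested, and 102 of them rose with rapamycin in YPD and 16 fell, with a median of 1.53 against 0.01 for all tested. Without the nitrogen catabolite repression genes, 83 of 109 rose and 16 fell, with a median of 1.12. Of the 54 genes lower in MDN, 50 were tested, 18 rose and 18 fell, and their median was -0.06. With YPD array 2 left out, 10 of these lower genes rose and 15 fell, and with YPD array 1 left out the number of all genes and probes that fell was 1131 rather than 1754.

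Among single genes, GAP1 was at 6.23 and 6.14 on the rapamycin arrays in YPD, against 6.0 for MDN over SCD, and the fitted mean was 6.18 ± 0.10 (SE, n = 2, limma adjusted p = 2.41e-05). CPA1 was at 3.99 and 3.94 (adjusted p = 2.41e-05 by limma), and HIS5 at 3.89 and 4.09 (adjusted p = 2.41e-05 by limma). Both genes had smaller ratios of MDN over SCD, but on an array of narrower spread. Of the leucine genes, LEU2 was at 1.24 and 0.96 and rose, whereas LEU1, at 0.07 and 0.08, did not pass (limma adjusted p = 0.437). The permease genes lower in MDN divided in their response. TAT1 was at -2.94 and -2.32 and GNP1 at -2.18 and -1.94, whereas AGP1 was at 3.42 and 2.93 and DIP5 at 2.09 and 2.51, all past the limma threshold. HXT1 fell, with a mean of -1.18 ± 0.20 (SE, n = 2, limma adjusted p = 0.00516), although it was higher in MDN than in SCD.

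Rapamycin in MDN was read beside these values, with the limit that its untreated channel is MDN, as is a channel of the MDN over SCD array. In MDN 30.8% of genes and probes rose and 23.3% fell by the same limma fit. Of the 128 tested genes higher in MDN than in SCD, 60 rose and 44 fell, and of the 50 lower ones 16 rose and 16 fell. Lysine genes, of which 8 of 9 had risen with rapamycin in YPD, fell in 6 and rose in 1, with LYS9 at -2.32 and -2.56. Branched-chain genes fell in 7 of 13 and rose in 2, with LEU2 at -2.64 and -2.84 and LEU1 at -2.12 and -2.25. ADE17 was at -3.47 on both arrays in MDN and at 3.10 and 3.26 in YPD. In the test of the difference itself, the rapamycin effect in MDN minus that in YPD, 29.5% of all genes and probes passed (limma adjusted p under 0.05). Of the 15 highest and 15 lowest genes of MDN over SCD, 27 were tested and 21 passed, 17 of them with the lower value in MDN.

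**Figure D5:**
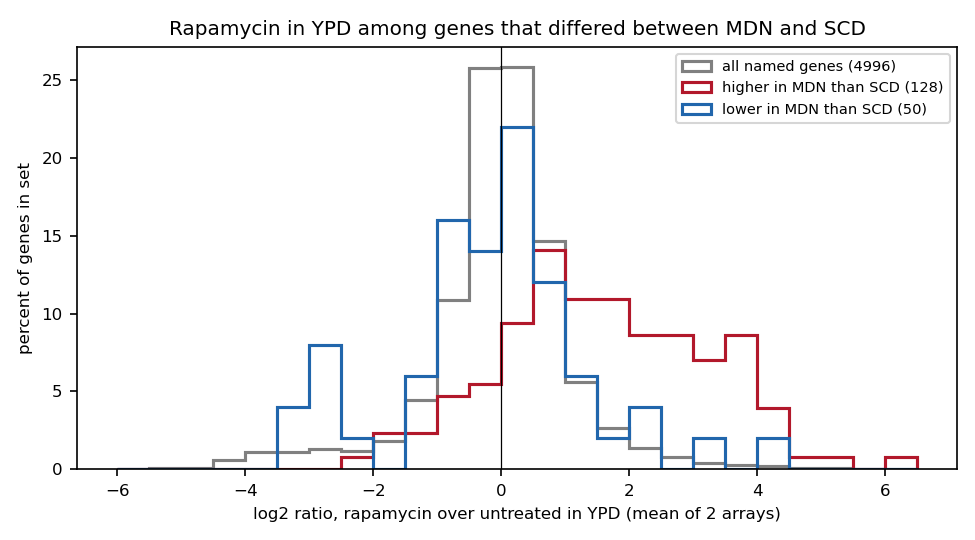
The histograms give the percent of genes in each set by the fitted log2 ratio of rapamycin over untreated cells in YPD (mean of 2 arrays), for all named genes tested, the 128 genes at least 2-fold higher in MDN than SCD and the 50 at least 2-fold lower. The higher set is displaced to the right, with a median of 1.53, while the lower set has a median of -0.06.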

How the data were processed

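Per the labels, S288c poly(A) RNA was hybridised with the SCD sample in Cy3 and the MDN sample in Cy5. The deposited values are log2 ratios: once turned back into ratios, 100% fall on steps of 0.01 (tolerance 0.0001). The sources used here do not name the scanner, background correction, normalization or spot filtering. The array median was -0.09, and whether or how the array was centred is not known. Genes were named from the probe annotation (5595 of 6210 probes with a single symbol, 615 unnamed, none with several), all matched to RefSeq R64 by gene number; the probes of the 34 genes with several were averaged.

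The MDN over SCD array has no replicate and no test. The 4 rapamycin arrays were fitted with limma 3.58.1 (R 4.3.3), a mean per medium, two-sided, on 5488 genes and unnamed probes measured on all 4. In simulated data for the YPD comparison (5488 genes) the fit recovered 38%, 66%, 98% and 100% of genes changed 1.5-, 2-, 4- and 8-fold. False calls were 1.95% of calls. Few genes were changed there, by the same amount on all 4 arrays, whereas 34.3% rose and 32.0% fell in the data. The recovery rates therefore do not give the power in the data. Gene lists and comparisons were chosen with earlier results of these data known. Names were drawn from the 15 highest and the 15 lowest genes, the most extreme members of every list (at most 6, not all printed), and all members of lists with at least 40% of members past 2-fold in 1 direction; other list members are named beside their group, and were chosen after their values were seen. A planned search of promoter motifs was not run, since no sequence was used here. Tables were handled with pandas 2.3.3 in Python 3.11.15, and figures drawn with matplotlib 3.10.9.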

Additional observations from a re-analysis of the deposited data

Results flagged for a closer look

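Genes at the ends of the MDN over SCD ranking were marked where limma's test of the difference between the rapamycin effects in MDN and in YPD passed (2 arrays per medium, adjusted p over all genes tested). Of all genes and probes tested, 29.5% passed. Untreated MDN is a channel both of the ranking array and of the rapamycin arrays in MDN. A gene high in untreated MDN can thereby be pushed toward a negative difference, which was not tested. These values are therefore no independent support for the ranking. The difference, MDN minus YPD, was -7.09 for GAP1 (adjusted p = 0.000126 by limma), -6.65 for ADE17, -5.17 for MEP2 and -3.84 for LEU2. For other genes higher in MDN than in SCD it was -3.37 for ARG3, -3.17 for DAL7, -3.03 for DAL80, -2.96 for CPS1, -1.38 for PUT1 and -1.06 for DAL5. The ASP3 copies, whose probes may share signal, gave -2.27 (ASP3-2), -1.74 (ASP3-1), -1.65 (ASP3-3, adjusted p = 0.0497 by limma) and -1.53 (ASP3-4). Among genes lower in MDN than in SCD, the difference was -3.52 for AGP1, -1.30 for CHA1 and -0.65 for ZRT1. It was positive for TAT1 (2.84), BAP2 (2.00), VHR2 (1.30) and MUP1 (0.81).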

How the results depend on the processing

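With 1 array, the counts of genes past 2-fold describe a size rule and depend on the scale. At least 1.5-fold they were 338 higher and 204 lower, and at least 3-fold 53 and 25. With the array stretched to the mean spread of all 6 arrays they were 399 and 204. On that scale the list medians became 3.85 (nitrogen catabolite repression), 3.40 (lysine), 2.49 (arginine), 2.31 (branched-chain), 1.79 (histidine) and -0.57 (permeases and sensor). Median centring gave 170 higher and 46 lower, and counting all probes separately 141 and 58. The nitrogen catabolite repression median was 1.73 without its farthest member and 1.30 with the ASP3 copies counted once, an alternative added after seeing the data; in both cases the lysine median, 1.86, was higher. Some list medians within 0.1 of 0, such as that of the zinc list (0.07 after median centring), changed sign. The medians of the lists given above on the stretched scale kept their sign under the alternatives run. Leaving out each rapamycin array in turn, calls in YPD ranged from 1263 to 1537 up and from 1131 to 1404 down. Among genes higher in MDN than in SCD 86 to 98 were then called up and 12 to 13 down, and among lower genes 10 to 15 up and 15 to 20 down. Where 1 array of a medium was left, its spread was taken from the pair in the other medium. The number of arrays limits the precision.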

Other observations

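Transporters of inner membranes were looked at after the values had been seen, so the following families are described without a test. For comparison, 2.45% of all genes were at least 2-fold higher in MDN than in SCD. Of 31 measured mitochondrial carrier genes 4 were higher by that rule and none was lower, with a median of 0.15. The higher carrier genes were OAC1 at 2.16, CTP1, the citrate carrier, at 1.70, DIC1, the dicarboxylate carrier, at 1.46 and YHM2, which carries citrate and oxoglutarate, at 1.08. Against YPD the same genes were at 1.75, 1.24, 1.51 and 0.59. Of 15 vacuolar amino acid transporter genes 4 were higher and none lower, with a median of 0.37. VBA1, which takes up basic amino acids, was at 1.69, RTC2, a homolog of cationic amino acid exporters, at 1.49, and AVT4 and AVT7, members of the family of vacuolar amino acid transporters, at 1.24 and 1.18.

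Neighbouring genes were both past 2-fold in 19 pairs of adjacent protein-coding genes in the RefSeq order, 16 of them with the same sign. The number of adjacent pairs examined was not recorded, so these counts have no background and do not show clustering. More genes were higher (2.45%) than lower (1.01%), so many pairs would share a sign in any order. BAP2 and TAT1 (-4.32 and -3.06) form such a pair, as do DAL1 and DAL4 (2.15 and 1.04) and HIS1 and FCY2 (1.39 and 1.51). The count also includes CPA1 with YOR302W (2.13 and 1.18), HXT6 with HXT7, and ASP3 copies with adjoining frames. In these the probes may share signal or read the same transcript, which was not tested. These pairs were picked after their values were seen. Of 554 unnamed probes measured, 10 were at least 2-fold higher and 4 lower, near the shares of named genes (2.45% and 1.01%). The highest unnamed probe was at 3.94.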
